A study of Homo sapiens with 66 samples.

Results

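The comparison of HIF-1α with HIF-2α in hypoxic HepG2 cells rests on 4 ChIP-seq libraries, 2 titled HIF-1α and 2 titled HIF-2α, out of 66 samples in the series, 50 of which had a peak list. The libraries were chosen by their labels alone: HepG2 cells, a line from a human hepatocellular cancer, held at 0.5% oxygen for 16 h, and the rabbit polyclonal antibodies PM14 against HIF-1α and PM9 against HIF-2α. Both groups shared the cell line and the hypoxia, and no normoxic HepG2 ChIP library was analysed here. Chromatin was crosslinked and immunoprecipitated, and each library was represented by its own list of called peaks. The lists held 3470 (HIF-1α Rep 1), 6851 (HIF-1α Rep 2), 5187 (HIF-2α Rep 1) and 4499 (HIF-2α Rep 2) peaks. Restricted to the 22 autosomes and the X and Y chromosomes, 19977 peaks remained and merged into 14008 sites. Peaks were tallest in HIF-1α Rep 2, with median scores of 61.9, 87.6, 70.7 and 68.4 in the same order of libraries, and widest there, with median widths of 730, 1045, 924 and 872 bp. The score is the peak caller's measure of significance and is not scaled between libraries, and the read depth behind the lists is unknown. Peak lists hold no expression by which the cell type could be checked. The libraries titled Rep 1 resembled the other isoform, so every comparison is given as titled and then with the HIF-1α and HIF-2α labels of the libraries titled Rep 1 exchanged. The exchanged labelling was chosen from these peak lists, and its values are a description with no test.

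Hypoxia-inducible factor (HIF) is a heterodimer of an oxygen-regulated α subunit and a constitutive partner, HIF-1β. In oxygenated cells the α subunits are hydroxylated on prolyl residues, captured by the von Hippel-Lindau protein and degraded, whereas in hypoxia they accumulate and bind DNA with HIF-1β at a short core, the hypoxia response element. HIF-1α and HIF-2α recognise the same core but are known for partly different targets, with glycolytic enzymes commonly assigned to HIF-1 and erythropoietin in liver and kidney to HIF-2.

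The sequences below show the hypoxia response element in sites of each class that the comparison turns on, and each site shown was chosen for holding it. Capitals mark the core, ACGTG or GCGTG, or its reverse complement, CACGT or CACGC. Each window of 81 bases is the plus strand of GRCh37, read 5′ to 3′ and set on the core nearest to the centre of the site. Sites called in all 4 libraries are represented by the site nearest to INO80D (chr2:206840331-206840411, outside protein-coding transcripts). Sites called in HIF-1α Rep 2 and HIF-2α Rep 1 and in neither other library, which are HIF-1-only after exchange, are represented by FAM174B (chr15:93352317-93352397) and VGLL4 (chr3:11684362-11684442), both within 1 kb of a transcription start site (TSS) and in an intron. Sites called in HIF-1α Rep 1 and HIF-2α Rep 2 alone, which are HIF-2-only after exchange, are represented by ACSL4 (chrX:108983417-108983497, outside protein-coding transcripts). The classes as titled are represented by DUSP6 (chr12:89747261-89747341, HIF-1-only, outside protein-coding transcripts) and SLC35D2 (chr9:99106998-99107078, HIF-2-only, in an intron).
INO80D: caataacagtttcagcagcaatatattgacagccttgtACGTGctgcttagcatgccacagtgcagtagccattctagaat
FAM174B: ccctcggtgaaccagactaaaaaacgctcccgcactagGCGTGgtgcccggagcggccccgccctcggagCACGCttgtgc
VGLL4: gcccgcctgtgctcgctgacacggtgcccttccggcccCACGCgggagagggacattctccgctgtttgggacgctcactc
ACSL4: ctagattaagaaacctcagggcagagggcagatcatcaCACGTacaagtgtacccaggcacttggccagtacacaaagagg
DUSP6: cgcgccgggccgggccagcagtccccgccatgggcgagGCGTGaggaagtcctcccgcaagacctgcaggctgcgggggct
SLC35D2: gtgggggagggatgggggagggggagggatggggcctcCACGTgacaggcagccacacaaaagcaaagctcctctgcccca

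The FAM174B window held the core once on each strand, and the other windows held it once, in SLC35D2 within the palindrome CACGTG, where it can be read on both strands. The bases around the core differed visibly between classes: the FAM174B and VGLL4 windows are rich in G and C, whereas the ACSL4 window is not. The mean GC content of the 200 bp around the site centre was 63.1% for the exchanged HIF-1-only class, 45.3% for the exchanged HIF-2-only class and 53.4% for sites called in all 4 libraries.

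The 4 libraries fell into pairs that crossed their titles. Peaks lying within 1 kb of a protein-coding TSS made up 6.73% of the peaks of HIF-1α Rep 1 (233 peaks, 95% exact binomial interval 5.92 to 7.62) and 28.7% of those of HIF-1α Rep 2 (1961 peaks, 27.6 to 29.7). For HIF-2α the share was 30.6% in Rep 1 (1584 peaks, 29.3 to 31.9) and 8.08% in Rep 2 (363 peaks, 7.30 to 8.92). HIF-1α Rep 2 and HIF-2α Rep 1 were thus the high libraries, HIF-1α Rep 1 and HIF-2α Rep 2 the low ones, and the titled groups overlapped fully. The intervals here and elsewhere cover counting error only. The median distance to a TSS was 47.7 kb in HIF-1α Rep 1 and 45.8 kb in HIF-2α Rep 2, against 16.3 kb in HIF-1α Rep 2 and 17.2 kb in HIF-2α Rep 1. The share of peaks farther than 50 kb from a TSS was 49.2, 31.4, 33.9 and 48.3% in the order HIF-1α Rep 1, HIF-1α Rep 2, HIF-2α Rep 1, HIF-2α Rep 2.

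As titled, the promoter-proximal share averaged 17.7% ± 15.5 (SD, n = 2) in the HIF-1α libraries and 19.3% ± 15.9 (SD, n = 2) in the HIF-2α libraries, a difference of -1.64 percentage points that was far smaller than the spread between replicates (exact permutation test, two-sided, p = 0.667, 1 after Benjamini-Hochberg adjustment over 7 tests). With 2 libraries against 2 there are 6 arrangements, and the test cannot give a p below 0.333. Nothing in the labels says whether the replicates came from separate cultures, so these p-values measure only the spread between these samples. After exchange it averaged 29.6% ± 1.36 in HIF-1α and 7.41% ± 0.955 in HIF-2α, a difference of 22.2 points, and the groups no longer overlapped.

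**Figure D1:**
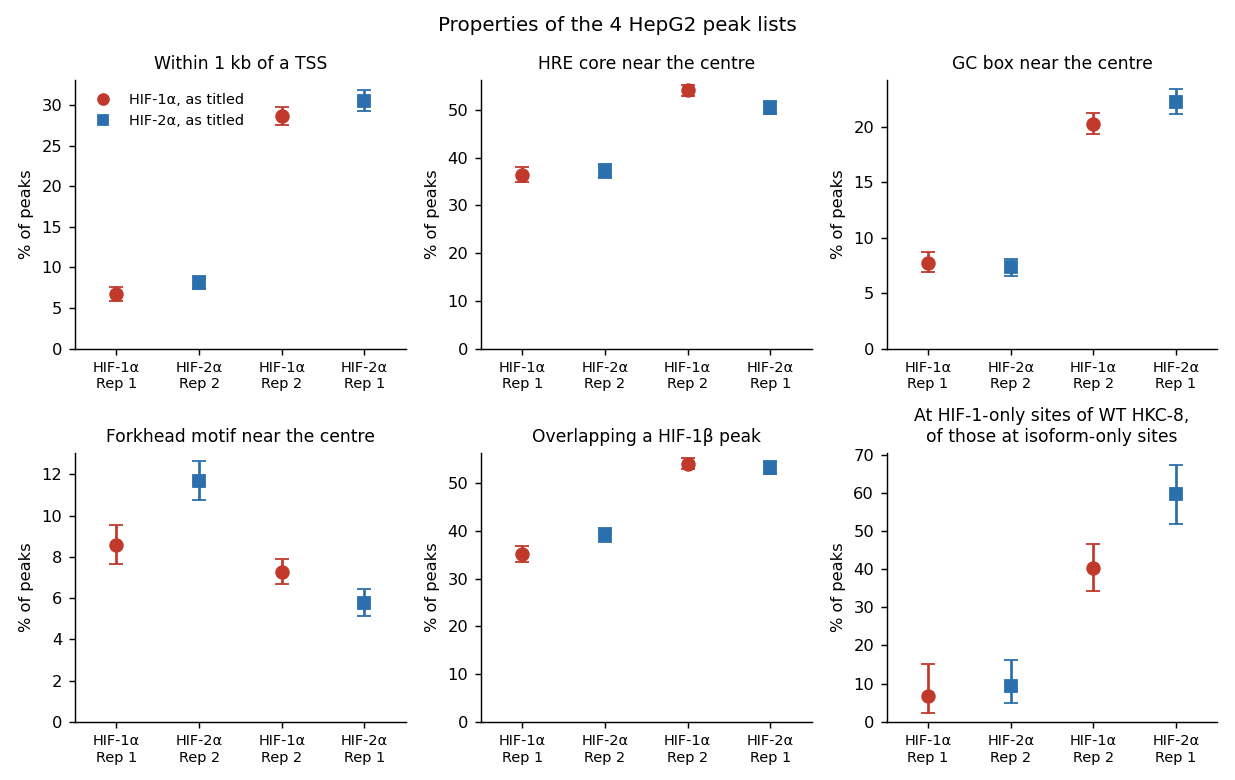
Each panel gives 1 property of the 4 HepG2 libraries, named on the axis with its unit, with 1 point per library and vertical bars for the 95% exact binomial interval of a share. HIF-1α Rep 2 and HIF-2α Rep 1 lie together (28.7 and 30.6% promoter-proximal), and so do HIF-1α Rep 1 and HIF-2α Rep 2 (6.73 and 8.08%).

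Peak positions set apart 1 of the crossed pairs. Of the shorter list of each pair, 50.08% of peaks were shared between HIF-1α Rep 2 and HIF-2α Rep 1 (2594 of 5180). The other pair that crosses the titles and the numbers, HIF-1α Rep 1 and HIF-2α Rep 2, shared 33.2% (1149 of 3462) and did not stand out. The pair titled HIF-1α shared 34.95% (1210 of 3462), and the pair titled HIF-2α shared 25.9% (1162 of 4492), the lowest of all 6 pairs. Within the same replicate number, HIF-1α and HIF-2α shared 26.8% in Rep 1 and 44.5% in Rep 2. Shifting one list by 10 kb left 1.01 to 1.76% shared. As titled, libraries of the same antibody shared 30.4% ± 6.42 of peaks and libraries of different antibodies 38.6% ± 10.6, so the within-antibody overlap was 8.22 points lower (exact permutation test, p = 0.667, adjusted p = 1). After exchange it was 8.61 points higher. The shortest list was that of HIF-1α Rep 1, and the longest that of HIF-1α Rep 2, so list length moved with these shares.

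Peak height set both crossed pairs apart. At the 795 sites called in all 4 libraries, Spearman's rank correlation of the peak scores across sites was 0.816 between HIF-1α Rep 2 and HIF-2α Rep 1 and 0.804 between HIF-1α Rep 1 and HIF-2α Rep 2. It was 0.607 within the HIF-1α title and 0.402 within the HIF-2α title, 0.478 between the isoforms in Rep 1 and 0.649 between them in Rep 2. Both crossed pairs stood above all 4 other pairs. The sites share their libraries and are not independent replicates, and no p is given.

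Sites bound by a single isoform in other cells of the series placed each library against isoforms labelled elsewhere. In WT HKC-8 renal tubule cells at the same oxygen and time, 142 sites were called in both HIF-1α libraries and no HIF-2α library (HIF-1-only), and 2367 the reverse (HIF-2-only). In HIF-1α Rep 1 of HepG2, 5 peaks overlapped a site of the former kind and 69 peaks a site of the latter. The numbers of peaks were 102 and 151 in HIF-1α Rep 2. They were 99 and 67 in HIF-2α Rep 1, and 11 and 106 in HIF-2α Rep 2. The HIF-1-only share of these peaks was therefore 6.76% in HIF-1α Rep 1, 40.3% in HIF-1α Rep 2, 59.6% in HIF-2α Rep 1 and 9.40% in HIF-2α Rep 2. As titled, the means were 23.5% ± 23.7 for HIF-1α and 34.5% ± 35.5 for HIF-2α (difference -11.0 points, exact permutation test, p = 0.667, adjusted p = 1). After exchange they were 49.98% ± 13.7 and 8.08% ± 1.87. Sites of RCC4, a renal cancer line without functional von Hippel-Lindau protein and cultured in normoxia, placed the libraries in the same pairs, with HIF-1-only shares of 44.4, 87.8, 94.2 and 46.9% in the same order of libraries. So did sites of HKC-8 knockouts that retain 1 isoform, with 7.19, 26.6, 40.1 and 6.09%.

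Other conditions of the series with HIF-1α and HIF-2α in 2 replicates each were compared in the same way. In 6 of 7 conditions, sites called in both libraries of 1 title and neither of the other outnumbered those found after exchanging the Rep 1 labels, by 10.2 to 29.9 times. In HepG2 the order was the opposite, with 85 isoform-only sites as titled and 1448 after exchange, 17.04 times as many. In the other 6 conditions the overlap within an antibody exceeded that between antibodies of different replicate number by 6.04 to 15.9 points, and in HepG2 it was 11.2 points lower (-11.2). By promoter-proximal share the titled groups were less distinct: both HIF-1α libraries exceeded both HIF-2α libraries in 4 of the 7 conditions. In HKC-8 at 0.5% oxygen for 48 h the shares were 16.7 and 5.82% for HIF-1α and 8.87 and 2.11% for HIF-2α, and at 3% oxygen for 6 h they were 9.93 and 6.29% against 6.53 and 6.63%, so the groups overlapped there as well. Whether tubes, labels or files were exchanged, and at which step, was not tested.

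**Figure D2:**
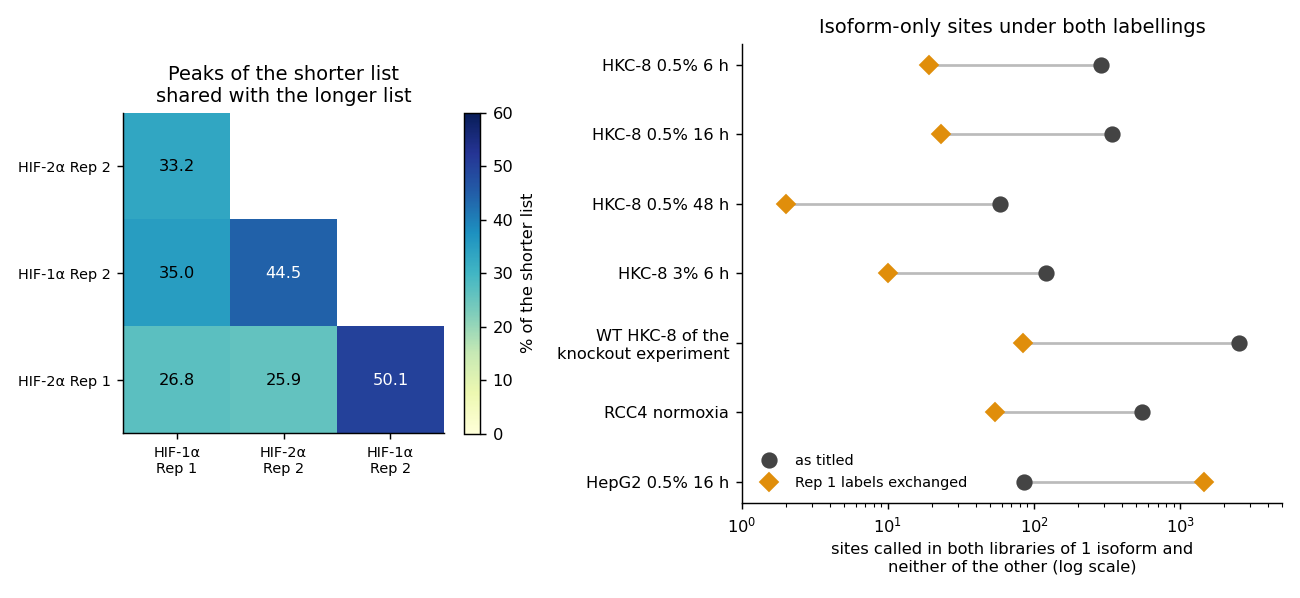
One panel gives the shared peaks of each pair of HepG2 libraries as a percentage of the shorter list. The other gives, for 7 conditions, the number of isoform-only sites on a log axis as titled and with the Rep 1 labels exchanged, and HepG2 is the condition in which the exchanged count (1448) exceeds the titled one (85).

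Most sites were called in 1 library. Of the 14008 merged sites, 10361 (74.0%) were called once, 2164 in 2 libraries, 688 in 3 and 795 in all 4. The sites called once were split as 2140 in HIF-1α Rep 1, 3328 in HIF-1α Rep 2, 2509 in HIF-2α Rep 1 and 2384 in HIF-2α Rep 2. Among sites called in exactly 2 libraries, 1382 were in HIF-1α Rep 2 with HIF-2α Rep 1 and 597 in both libraries titled Rep 2. The remaining pairs held 66 (HIF-1α Rep 1 with HIF-2α Rep 2), 54 (both HIF-1α), 34 (both titled Rep 1) and 31 (both HIF-2α). As titled there were thus 54 HIF-1-only sites and 31 that were HIF-2-only, and after exchange 1382 and 66.

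As titled, almost no site was particular to an isoform: of 1204 sites called in both HIF-1α libraries, 1150 (95.5%) were also called in at least 1 HIF-2α library. Of 1159 called in both HIF-2α libraries, 1128 (97.3%) were also called in a HIF-1α library. After exchange the 2 isoforms were unequal. The pair HIF-1α Rep 2 and HIF-2α Rep 1 shared 2582 sites, of which 878 (34.0%) were called in HIF-1α Rep 1 and 1117 (43.3%) in HIF-2α Rep 2. The pair HIF-1α Rep 1 and HIF-2α Rep 2 shared 1144 sites, of which 806 (70.5%) were called in HIF-2α Rep 1 but 1067 (93.3%) in HIF-1α Rep 2, the longest list. The strict HIF-2-only class of 66 sites was therefore limited by that library. The 338 sites called in HIF-1α Rep 1 and HIF-2α Rep 2 but not in HIF-2α Rep 1, whether or not HIF-1α Rep 2 called them, are given beside it as a broader set, chosen after the values were seen.

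**Figure D3:**
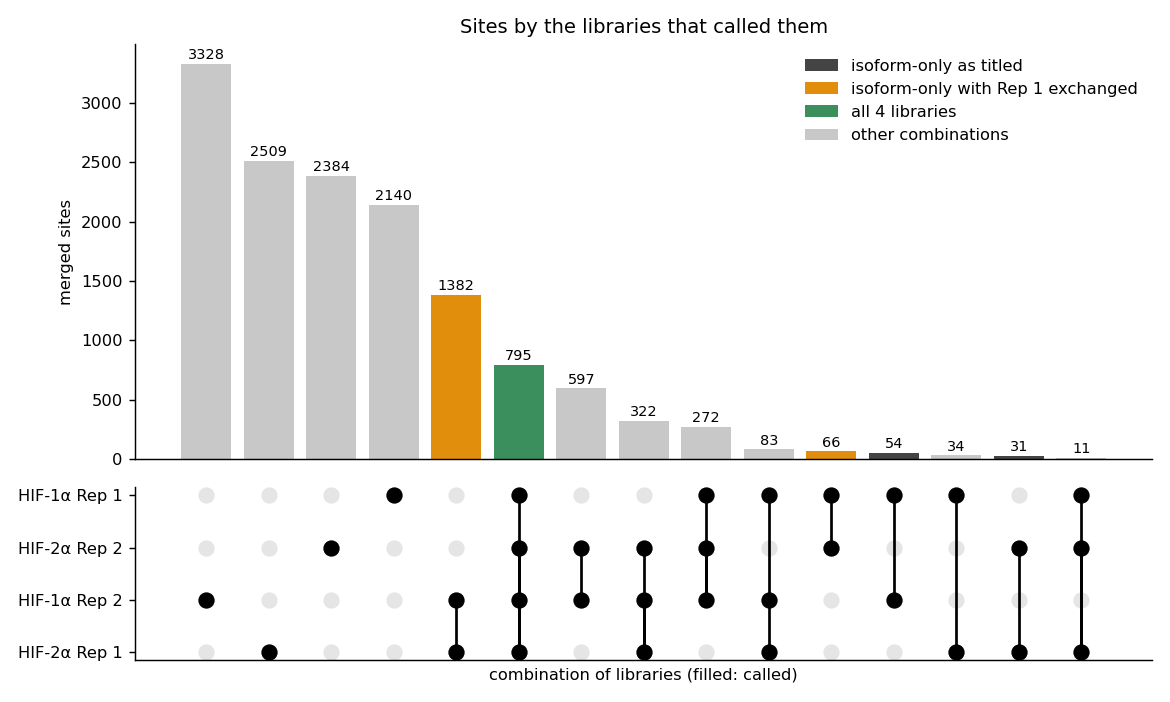
Bars give the number of merged HepG2 sites called in each combination of the 4 libraries. The combination of HIF-1α Rep 2 with HIF-2α Rep 1 (1382 sites) exceeds that of all 4 libraries (795), while both same-antibody pairs hold 54 and 31.

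Distance to a protein-coding TSS separated the classes after exchange but not as titled. Of the 54 titled HIF-1-only sites, 3 (5.56%, interval 1.16 to 15.4) lay within 1 kb of a protein-coding TSS, and of the 31 titled HIF-2-only sites none did, which allows a share of up to 11.2%. The intervals of these classes overlap. Their median distances were 44.9 and 70.3 kb, and 42.6 and 61.3% of their sites lay beyond 50 kb. After exchange, 904 of 1382 HIF-1-only sites (65.4%, 62.8 to 67.9) were promoter-proximal, with a median distance of 0.237 kb. Of the 66 HIF-2-only sites, 1 was (1.52%, 0.0384 to 8.16), with a median of 56.3 kb. The broader set of 338 sites held 19 proximal ones (5.62%, 3.42 to 8.64) at a median of 35.8 kb. Sites called in all 4 libraries lay between, with 153 of 795 proximal (19.2%, 16.6 to 22.2) and a median of 16.1 kb. Beyond 50 kb lay 9.41% of exchanged HIF-1-only, 53.0% of exchanged HIF-2-only and 25.7% of sites of all 4 libraries.

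**Figure D4:**
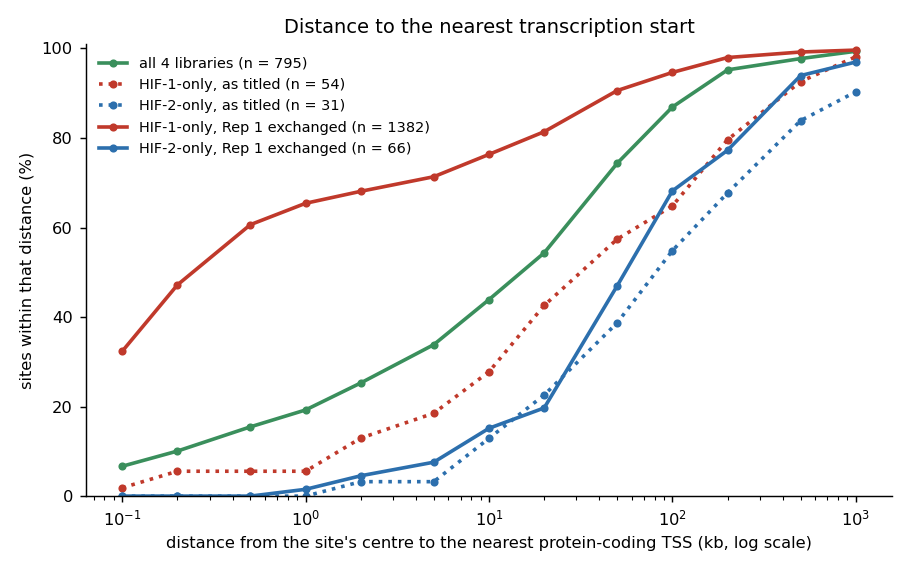
Curves give the cumulative share of sites of each class, in percent, within a given distance of the nearest protein-coding TSS, in kb on a log axis. The exchanged HIF-1-only curve is already at 65.4% at 1 kb, against 19.2% for sites of all 4 libraries and 1.52% for exchanged HIF-2-only sites.

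The core of the hypoxia response element (ACGTG or GCGTG, either strand, within 100 bp of the peak centre) was found in 36.4% of peaks of HIF-1α Rep 1, 54.1% of HIF-1α Rep 2, 50.5% of HIF-2α Rep 1 and 37.2% of HIF-2α Rep 2. Windows of the same length 2 kb to either side held it in 16.7, 21.4, 20.8 and 17.6%, and 40.9% of windows at all protein-coding TSS in the genome held it. As titled, HIF-1α had 45.3% ± 12.5 and HIF-2α 43.8% ± 9.42 (n = 2 each, difference 1.46 points, exact permutation test, p = 1, adjusted p = 1). After exchange the values were 52.3% ± 2.58 and 36.8% ± 0.517. Among promoter-proximal peaks the 4 libraries were close together (72.5, 69.8, 69.5 and 71.1%), and the libraries parted among distal peaks (33.8, 47.8, 42.1 and 34.2%). The core includes the palindromic E-box CACGTG, so some matches may be counted for either.

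Among the classes given here the core was most frequent at sites of all 4 libraries. It was present in 603 of 795 sites of all 4 libraries (75.8%, interval 72.7 to 78.8; flanking windows 24.3%). The exchanged HIF-1-only class was close to this (1014 of 1382, 73.4%, 71.0 to 75.7), both at proximal (73.0%) and at distal sites (74.1%). The exchanged HIF-2-only class held it in 16 of 66 sites (24.2%, 14.5 to 36.4), against 15.9% in its flanks. The broader set of 338 held it in 174 (51.5%, 46.0 to 56.9). As titled, it was in 32 of 54 HIF-1-only sites (59.3%, 45.0 to 72.4) and in 8 of the 31 that were HIF-2-only (25.8%, 11.9 to 44.6). The sites of the smaller classes also had lower scores, and the part of score in these shares was not tested.

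The GC box GGGCGG, bound by SP and KLF factors and common at promoters, was more frequent in promoter-proximal than in distal peaks of every library. It was found in 7.74, 20.3, 22.3 and 7.32% of the peaks of HIF-1α Rep 1, HIF-1α Rep 2, HIF-2α Rep 1 and HIF-2α Rep 2, and in 43.4% of all promoter windows. As titled the means were 14.02% ± 8.88 and 14.8% ± 10.6 (difference -0.781 points, exact permutation test, p = 1, adjusted p = 1), and after exchange 21.3% ± 1.40 and 7.53% ± 0.295. Among proximal peaks alone it was in 44.2, 50.9, 52.9 and 36.4%, and among distal peaks in 5.11, 8.01, 8.79 and 4.77%, so the crossed pairs kept their order in both sets. In the exchanged HIF-1-only class 608 of 1382 sites had a GC box (43.99%), 56.5% of the proximal and 20.3% of the distal ones. At sites of all 4 libraries it was 16.4% (39.2% proximal, 10.9% distal), in the exchanged HIF-2-only class 6.06%, and in the classes as titled 7.41% (HIF-1-only) and 3.23% (HIF-2-only). The ETS word CCGGAAG, another promoter motif, was in 9.99% of exchanged HIF-1-only sites and 2.01% of sites of all 4 libraries, against 9.42% of all promoters.

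Forkhead and C/EBP words, motifs of liver and enhancer factors, were less frequent in the exchanged HIF-1-only class than in sites of all 4 libraries. The forkhead word (TGTTTAC or TATTTAC), recognised by FOXA proteins that open liver enhancers, was in 8.58, 7.28, 5.77 and 11.7% of peaks in the same order of libraries, with 6.41 to 6.85% in the flanks and 2.74% of all promoters. As titled HIF-1α had 7.93% ± 0.920 and HIF-2α 8.73% ± 4.18 (difference -0.802 points, exact permutation test, p = 1, adjusted p = 1). After exchange the means were 6.52% ± 1.06 and 10.1% ± 2.20, a gap smaller beside its spread than that of the other measures. Among distal peaks the shares were 8.55, 9.16, 7.12 and 12.2%, and here HIF-1α Rep 2 exceeded HIF-1α Rep 1, so the crossed pairs did not separate. By class, a forkhead word was in 2.89% (2.08 to 3.92) of exchanged HIF-1-only sites, which is below their flanks at 5.86%. It was in 12.6% (10.4 to 15.1) of sites of all 4 libraries, 15.2% (7.51 to 26.1) of exchanged HIF-2-only sites and 16.6% (12.8 to 21.0) of the broader set. At distal sites alone the exchanged HIF-1-only class had 4.81% and the class of all 4 libraries 13.9%. As titled it was in 12.96% of HIF-1-only sites and in 6.45% of those that were HIF-2-only, counts of 7 and 2. The C/EBP word TTGCNNAA was in 5.28% of exchanged HIF-1-only, 14.97% of all-4, 15.2% of exchanged HIF-2-only and 18.05% of the broader set, and in 5.21% of promoters.

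**Figure D5:**
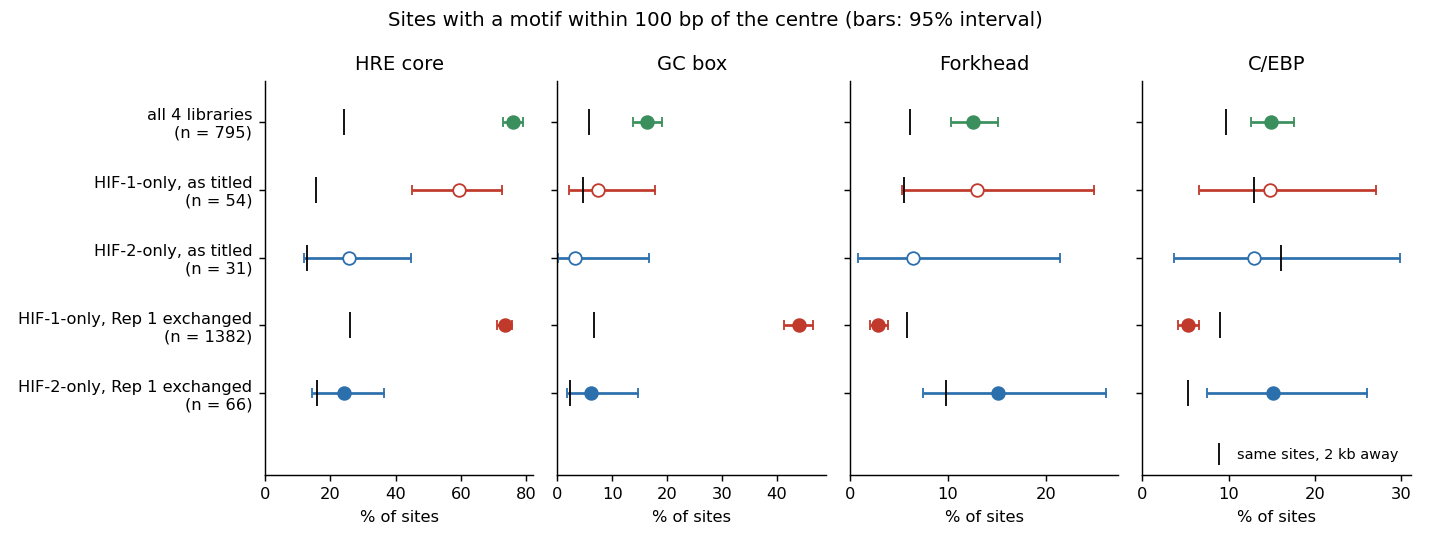
Points give the percentage of sites of each class with a motif within 100 bp of the centre, with 95% exact binomial intervals, and the matching flanking windows. GC boxes stand at 43.99% in the exchanged HIF-1-only class and at 16.4% in sites of all 4 libraries, and forkhead words at 2.89 and 12.6%.

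The heterodimer partner gave a check on the sites that did not use either α antibody. HIF-1β was immunoprecipitated from HepG2 at the same oxygen and time in 2 libraries with 6171 and 3986 peaks. A HIF-1β peak of either replicate overlapped 35.2% of the peaks of HIF-1α Rep 1, 54.1% of HIF-1α Rep 2, 53.3% of HIF-2α Rep 1 and 39.1% of HIF-2α Rep 2, against 1.42 to 1.87% after a 10 kb shift. As titled the means were 44.6% ± 13.4 and 46.2% ± 10.0 (difference -1.60 points, exact permutation test, p = 1, adjusted p = 1), and after exchange 53.7% ± 0.551 and 37.1% ± 2.82. Of the sites called in all 4 libraries 789 (99.2%) met a HIF-1β peak of at least 1 replicate and 661 (83.1%) in both. In the exchanged HIF-1-only class 1247 (90.2%) did in either and 866 (62.7%) in both. In the exchanged HIF-2-only class 24 of 66 (36.4%) did in either and 3 (4.55%) in both, and in the broader set 238 (70.4%) and 51 (15.1%). In the titled HIF-1-only class 33 of 54 (61.1%) did in either and 6 in both, and in the titled HIF-2-only class 12 of 31 (38.7%) and 1.

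Named sites were the best ranked of each class by score, where rank 1 is the highest peak of a library and a site takes the name of its nearest protein-coding TSS. The strongest site of all was 68.3 kb from WDR72. Its scores were 2901 in HIF-1α Rep 1, 3100 in HIF-1α Rep 2, 2419 in HIF-2α Rep 1 and 3124 in HIF-2α Rep 2, and it ranked 1, 16, 27 and 1. The scores of HIF-1α Rep 2 and HIF-2α Rep 1 include 43 and 12 peaks at exactly 3100, so the order among these is arbitrary. A pair of sites lay near BHLHE40, a transcriptional repressor of the circadian clock and a classical hypoxia target, at 7.33 kb and 391 bp from its TSS. INO80D, a chromatin remodelling subunit, at 87.6 kb, and SLC45A1, a sugar transporter, at 105.9 kb complete the list, and SLC45A1 lay beyond the 100 kb limit used for gene counts. Of these 5 sites, 4 lay over 5 kb from the TSS, and each was called by both HIF-1β libraries.

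The exchanged HIF-1-only class held peaks as high as these. The site 657 bp from the TSS of FAM174B (chr15:93351574-93353169, intron) scored 3100 in both HIF-1α Rep 2 (rank 18) and HIF-2α Rep 1 (rank 6) and was not called in HIF-1α Rep 1 or HIF-2α Rep 2. NARF, at 4 bp and in a UTR, ranked 19 and 7, and RLF, a zinc finger factor whose site lay in a coding exon 137 bp from the TSS, ranked 62 and 44. FAM174B, NARF, RLF, VGLL4 and COX20 were also HIF-1-only sites in both WT HKC-8 and RCC4. HK2, the hexokinase that traps glucose in the cell, had a site 521 bp from its TSS (chr2:75060190-75063433, intron) with scores of 2141 and 1387, and it was HIF-1-only in WT HKC-8 and the knockouts. The others were P4HA2, a collagen prolyl hydroxylase, at 73 bp, STING1, an adaptor of innate immunity, at 21.2 kb, PPP1R3G, a subunit that directs phosphatase 1 to glycogen, at 756 bp, and KDM4C, a histone demethylase, at 4.71 kb. All 10 had HIF-1β peaks in both replicates, and 8 of the 10 lay within 1 kb of a TSS.

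The exchanged HIF-2-only class had no comparable peaks. Its best site, in a coding exon of chr22:41222929-41223494 and 7.79 kb from the TSS of SLC25A17, a peroxisomal transporter, scored 139 in HIF-1α Rep 1 (rank 512) and 178 in HIF-2α Rep 2 (rank 777). It was a HIF-2-only site in WT HKC-8, the single one of the 10 that matched a reference class. ACSL4, a long-chain acyl-CoA synthetase, had a site at 6.78 kb with scores of 90.2 and 148. RPS6KA3, SERINC5, TMEM135, BCAS1, ZNF670, FGL2 and HAS2 were also among the best ranked, none nearer than 23.6 kb to a TSS. None of the 10 was called in HIF-1β Rep 2, and 6 were called in HIF-1β Rep 1.

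As titled, the best isoform-only sites were weak in at least 1 of their libraries. DUSP6, a phosphatase that restrains MAP kinase, had a HIF-1-only site 1.08 kb from its TSS (chr12:89745536-89748524), with scores of 87.2 and 256. AHNAK, IKBKG, LDLRAD1, SPTBN1, ZBTB38, SSR1, IRF1, OXR1 and PMFBP1 were named by the same rule, and the 10 sites had mean ranks of 1070 to 1924. The AHNAK site, in an intron, was HIF-2-only in the HKC-8 knockouts. The best titled HIF-2-only sites had mean ranks of 1704 to 2411 and lay near LRFN5, SLC35D2, CEMIP, TMEM247, ACOT11, SLX4IP, SPRY1, CPSF4L and ILRUN, all farther than 1 kb from the TSS. SLC35D2, a nucleotide sugar transporter, scored 109 in HIF-2α Rep 1 and 73.9 in HIF-2α Rep 2, where the lowest score listed is 50. None of the titled HIF-2-only sites matched an isoform-only site of the other cells.

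Genes of 15 lists (165 genes) were counted where they had the nearest TSS to a site within 100 kb. Sites of all 4 libraries reached 60 of the 165, against 3.12% of all 19794 protein-coding genes. Titled HIF-1-only sites reached 2 (LOXL2 and PLIN2) against 0.177% of all genes, and titled HIF-2-only sites reached 0 against 0.0859%. Exchanged HIF-1-only sites reached 27 against 6.38%, exchanged HIF-2-only sites 0 against 0.227%, and the broader set 13 against 1.25%. By library, 75 genes had a peak in HIF-1α Rep 1 (9.53% of all genes), 109 in HIF-1α Rep 2 (21.3%), 95 in HIF-2α Rep 1 (16.8%) and 90 in HIF-2α Rep 2 (11.4%). The lists hold known hypoxia targets and liver genes, so a share above that of all genes was built into the choice, and the counts are read between classes. For the titled and exchanged HIF-2-only classes the share of all genes is so low that a count of 0 in a list says nothing of that list.

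Glucose handling was shared by all libraries. Of 22 genes of glucose uptake and glycolysis, 16 had a site of all 4 libraries, ENO1, PFKFB4, LDHA and ALDOA with the best ranks. The exchanged HIF-1-only class added sites at 4 (HK2, PFKL, ALDOC and the glucose transporter SLC2A1), and the titled classes and the exchanged HIF-2-only class added none. By library 17, 20, 20 and 16 of the 22 genes had a peak. Heights still followed the crossed pairs. LDHA, which reduces pyruvate to lactate, had a site 80 bp from its TSS that scored 501 in HIF-1α Rep 1, 3100 in HIF-1α Rep 2, 2776 in HIF-2α Rep 1 and 919 in HIF-2α Rep 2. Among the 795 sites this site ranked 109, 12, 19 and 117. PDK1, a pyruvate dehydrogenase kinase, ranked 315, 20, 20 and 429, and GAPDH ranked 265, 13, 5 and 250. Glycogen genes were reached less often, with 3 of 11 at sites of all 4 libraries (PPP1R3C, GBE1 and UGP2) and 2 at exchanged HIF-1-only sites (PPP1R3G and PGM1). By library 3, 7, 6 and 5 of the 11 had a peak.

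The other hypoxia targets were counted by the same rule. Of all protein-coding genes, 3.12% had a site of all 4 libraries and 6.38% an exchanged HIF-1-only site. The broader set reached 1.25%. Sites of all 4 libraries were found at 2 of 11 oxygen-sensing genes (EGLN3, a prolyl hydroxylase of HIF, and CITED2), and an exchanged HIF-1-only site at HIF3A. They were found at 1 of 6 carbonic anhydrase and pH genes (CA9) and 6 of 10 secreted vascular factors, among them ADM, STC2 and VEGFA. Of 6 mitophagy and mTOR genes, DDIT4 and BNIP3L had such a site and BNIP3, a mitophagy receptor, had an exchanged HIF-1-only site 77 bp from its TSS, with scores of 1358 in HIF-1α Rep 2 and 1208 in HIF-2α Rep 1. Of 8 histone demethylases 4 had sites of all 4 libraries (KDM3A, KDM7A, KDM4B and KDM6B) and 4 had exchanged HIF-1-only sites (KDM4C, KDM4B, KDM2B and KDM7A). Collagen-modifying enzymes had sites of all 4 libraries at 3 of 9 (PLOD2, P4HA1 and LOX), lipid genes at 2 of 11 (PLIN2 and HILPDA), growth regulators at 4 of 10 (NDRG1, ANKRD37, IGFBP1 and AMOTL2). Exchanged HIF-1-only sites reached 2 vascular factors, 2 collagen-modifying enzymes, 2 lipid genes and 1 growth regulator (NDRG1). Sites of the broader set reached 3 growth regulators (INHBE, ERRFI1 and IGFBP3), 1 vascular factor (STC2) and 1 demethylase (KDM4C). The clock list had 1 of 12 at sites of all 4 libraries (BHLHE40) and 4 genes at exchanged HIF-1-only sites (DBP, PER1, NR1D1 and BHLHE41).

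Erythropoietin and iron genes were not on one side. Of 10, 7 had a site of all 4 libraries, among them TF, which carries plasma iron, EPO, CP and HMOX1, and 4 had an exchanged HIF-1-only site (SLC40A1, FTL, HMOX1 and HAMP). None had a titled isoform-only or exchanged HIF-2-only site. The EPO site (chr7:100320776-100322159, 3.37 kb from the TSS, outside protein-coding transcripts) scored 525 in HIF-1α Rep 1, 1960 in HIF-1α Rep 2, 461 in HIF-2α Rep 1 and 728 in HIF-2α Rep 2. Its ranks among the 795 sites were 102, 115, 228 and 156, close together except for HIF-2α Rep 1. TF, at 3.24 kb, ranked 77, 148, 266 and 21, higher in HIF-1α Rep 1 and HIF-2α Rep 2 than in the other 2 libraries.

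Liver genes were counted by the same rule. Of 16 plasma protein genes, 5 had sites of all 4 libraries (among them APOC3, SERPINA1, AHSG and APOA1), against 3.12% of all genes. The broader set, which by its definition lacks HIF-2α Rep 1, reached 6, among them ALB, APOB, AFP and AGT, against 1.25%. The best-ranked broader-set site of each of these 6 genes was also called in HIF-1α Rep 2. No plasma protein gene had an exchanged HIF-1-only site, against 6.38% of all protein-coding genes. None had a titled isoform-only one, against 0.177% (HIF-1-only) and 0.0859% (HIF-2-only). With 16 genes, a count of 0 cannot be told from these shares. By library 9, 13, 5 and 13 of the 16 had a peak, against 9.53, 21.3, 16.8 and 11.4% of all genes. HIF-2α Rep 1 was lowest, while HIF-1α Rep 2 was as high as HIF-2α Rep 2. The ALB site, 18.03 kb from the TSS of albumin, scored 92.5 in HIF-1α Rep 1, 131 in HIF-1α Rep 2 and 249 in HIF-2α Rep 2 and was not called in HIF-2α Rep 1. Of 13 liver transcription factors, 4 had sites of all 4 libraries, among them FOXA2, PROX1 and HNF4A, and by library 4, 8, 5 and 7 had a peak. FOXA2, a pioneer factor of liver enhancers, had a site 50.3 kb away that ranked 27, 69, 90 and 22 of 795. The HNF4A site, in an intron, ranked 161, 394, 729 and 227. Of 10 liver metabolism genes none was reached by any of these 6 classes, which reached 0.0859 to 6.38% of all genes. With 10 genes, a count of 0 cannot be told from these shares either. By library 0, 3, 2 and 2 of the 10 had a peak.

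Rank order within the 795 sites of all 4 libraries compared peak height where every library had a called peak. As titled, both HIF-1α libraries ranked above both HIF-2α libraries at 40 sites (5.03%), and both HIF-2α above both HIF-1α at 59 (7.42%). After exchange HIF-1α was above HIF-2α at 228 (28.7%) and HIF-2α above HIF-1α at 281 (35.3%). The remaining division, by replicate number, held 103 (12.96%) with both libraries titled Rep 1 above and 83 (10.4%) with both titled Rep 2 above. At the 153 promoter-proximal sites exchanged HIF-1α was above at 88 (57.5%, interval 49.3 to 65.5) and exchanged HIF-2α at 21 (13.7%, 8.70 to 20.2). At the 642 distal sites the order turned, with 140 (21.8%, 18.7 to 25.2) and 260 (40.5%, 36.7 to 44.4). As titled the proximal counts were 5 and 13 and the distal ones 35 and 46. Of the 100 sites with a forkhead word, exchanged HIF-2α was above at 41 and exchanged HIF-1α at 16. At distal sites with a forkhead word the counts were 39 and 11 of 89, and at distal sites without one 221 and 129 of 553.

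Of the 60 listed genes with a site of all 4 libraries, 38 had exchanged HIF-1α above HIF-2α and 9 had the reverse. Over all 795 sites these orders held 28.7 and 35.3%, and over the promoter-proximal ones 57.5 and 13.7%. The titled orders were met at 1 listed gene (EPO, HIF-1α above) and 5 (HIF-2α above), against 5.03 and 7.42% of all 795 sites. The part of TSS distance in the list counts was not tested. Glycolysis gave 13 of 16 with exchanged HIF-1α above, glycogen 3 of 3, demethylases 4 of 4, mitophagy and mTOR 2 of 2 and secreted vascular factors 5 of 6. The demethylase KDM3A ranked 110, 18, 7 and 76, and CA9 486, 68, 77 and 430. Liver transcription factors gave 3 of 4 with exchanged HIF-2α above. Liver plasma proteins gave 1 with exchanged HIF-1α above, 2 with exchanged HIF-2α above and 2 with titled HIF-2α above. IGFBP1, which binds insulin-like growth factors and is made by hypoxic liver, ranked 153, 234, 389 and 53.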

How the data were processed

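Per the submitters' processing notes and the study's methods, the authors trimmed reads with Trim Galore 0.3.3, aligned them to GRCh37 with BWA 0.7.5a-r405, handled them with SAMtools 0.1.19, Picard 1.106 and bedtools 2.17.0, and called peaks per sample with MACS. The study's methods also describe a second peak caller, T-PIC, a filter on the count under the peak, and overlap between replicates. The lists used here hold many peaks found in 1 replicate only, so the replicate step was not applied to them. The deposited lists give each peak's position and a score. The score was read as -10 log10 of the caller's p-value because the lowest score was 50, which is an inference from the values. Read depth is not in the peak lists and is unknown here, so precision is limited by the number of peaks and of libraries.

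Peaks on the 22 autosomes, X and Y were used (30 others left out). Lists shared a peak at 1 bp of overlap, and overlapping peaks merged into sites. TSS were those of 89204 protein-coding transcripts of GENCODE 44 on GRCh37. Motif words were searched on both strands within 100 bp of the centre, with flanking windows 2 kb away. Genes were assigned by nearest TSS within 100 kb. Libraries were compared by exact permutation tests (Python 3.11.15, scipy 1.17.1), adjusted over 7 tests, after checks on simulated data. Named sites were the 10 best mean ranks per isoform-only class and the 5 best for all 4 libraries, with up to 4 genes per list. Other genes of a list are named where they add a value, and were then chosen after their values were seen. Printed sequences are from the named sites with a hypoxia core within 100 bp, outside UTRs and chromosome 8, with a second site for 1 class. Some items that the rules select are not reported here. Members, lists and tests were chosen with earlier results of these data known. Other score minimums, list lengths, overlaps, TSS sets, motif windows and reference cells, leaving out each library, and pairing by replicate number were tried.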

Additional observations from a re-analysis of the deposited data

How the results depend on the processing

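As titled, no difference passed the test, and 2 libraries per antibody could not have done so, which says nothing of stability. Exchanging the Rep 1 labels turned 5 differences in direction: promoter-proximal share to 22.2 points, within-antibody overlap to 8.61, GC box to 13.8, share at HIF-1-only sites of WT HKC-8 to 41.9 and HIF-1β overlap to 16.6. It moved the hypoxia core to 15.5, HIF-1-only sites to 1382 and HIF-2-only sites to 66. The HIF-1β difference also turned at a score of at least 100 (2.23) and with lists of equal length (0.895), and the forkhead difference turned among peaks that overlap HIF-1β (0.676). A score of at least 100 left 17 HIF-1-only, 4 HIF-2-only and 444 sites of all 4 libraries, and sites called by both HIF-1β libraries were 6 and 1 of the titled classes. The cause of these turns was not tested.

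Leaving out 1 library gave -12.9 to 9.61 points for the promoter-proximal share, -21.4 to -3.48 for overlap, -7.39 to 10.3 for the hypoxia core, -3.76 to 2.16 for forkhead, -8.26 to 6.70 for GC box, -36.1 to 14.1 for the share at HIF-1-only sites and -11.1 to 7.87 for HIF-1β. The promoter-proximal, hypoxia core, GC box, HIF-1-only site and HIF-1β differences were above 0 without either library titled Rep 1 and below 0 without either titled Rep 2. With a replicate block the differences stay as they are (-1.64 points for the promoter-proximal share) and p was 1 for all 7. Deviations of same-numbered libraries correlated at -0.276 over 14008 sites. With the numbers crossed 0 of 7 tests passed, and the smallest p was 0.5 (exact permutation test within blocks). That is the lowest p that such blocks allow, so no test could have passed with either pairing.

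Among alternatives added after seeing the data, the exchanged HIF-1-only class held 837 sites at a score of at least 100, 1015 with lists of equal length and 866 called by both HIF-1β libraries, of which 64.2 to 69.7% were promoter-proximal. The exchanged HIF-2-only class held 18, 114 and 3, so its size depended on these choices. The peak lists carry no read depth, and a site missing from a list may hold signal under the caller's limit.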
